A study of Mus musculus with 18 samples.

Results

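The small proline-rich genes described here were Sprr1a, Sprr2a1, Sprr2a2, Sprr2a3 and Sprr2b, 5 of the 53465 genes in the deposited count table. They were taken by symbol. They had been listed because counts of Sprr2a genes differed between cytokine and PBS libraries of this experiment, so the values against PBS are given as a description without a test. Microglia and macrophages were sorted from the contused spinal cord of adult female C57BL/6J mice, aged 8 to 10 weeks. Each of 9 mice received a single intraspinal injection 48 h after spinal cord injury (SCI), and cells were collected 24 h later. Mice 1, 2 and 3 received PBS, mice 5, 6 and 7 received 100 ng of rIL-13, and mice 8, 9 and 10 received 100 ng of rIL-4. Microglia (CD45low) and macrophages (CD45high) of the same cord were sorted with antibodies to CD45, CD11b and F4/80 and gave separate SMART-seq2 libraries, which makes 18 libraries in 6 groups of 3. All libraries used here come from injured and injected cords, those of the PBS groups included.

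Sprr genes lie side by side in the epidermal differentiation complex and are best known from skin. Their short, proline-rich proteins are cross-linked by transglutaminases into the cornified envelope, the tough layer under the membrane of dying keratinocytes, and many are raised in stressed or inflamed epithelia, including by type 2 cytokines. Sprr1a is also known as a gene that injured neurons switch on while they regrow axons.

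The main difficulty with these genes is that the Sprr2a copies are almost the same sequence, so that a read can match more than 1 of them. The coding sequences from the GENCODE annotation of GRCm38 show how little separates them. Sprr2a1 and Sprr2a2 had the same 252 coding bases. Sprr2a3 differed from Sprr2a1 at 3 positions, G63A, G159T and A192T, counted from 1 at the first base of the start codon, each in the third position of a codon. Capitals mark these 3 positions.
Sprr2a1: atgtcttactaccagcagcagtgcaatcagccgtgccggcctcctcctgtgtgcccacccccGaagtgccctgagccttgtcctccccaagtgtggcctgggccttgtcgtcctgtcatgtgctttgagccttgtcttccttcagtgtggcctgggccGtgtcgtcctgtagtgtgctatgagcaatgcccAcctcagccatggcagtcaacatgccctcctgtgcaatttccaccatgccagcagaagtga
Sprr2a3: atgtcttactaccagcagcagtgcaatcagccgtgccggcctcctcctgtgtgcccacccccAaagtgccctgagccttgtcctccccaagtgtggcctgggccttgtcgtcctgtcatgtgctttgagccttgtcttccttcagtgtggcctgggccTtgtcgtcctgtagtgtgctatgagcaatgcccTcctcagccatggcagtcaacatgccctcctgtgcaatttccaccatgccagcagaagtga
The coding sequence of Sprr2b, a neighbour of the same subfamily, was 87.7% identical to that of Sprr2a1 over the 252 bases that could be aligned. That of Sprr1a was 69.3% identical over 241 aligned bases.

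The transcripts were then cut into every possible stretch of 76 bases, the length of a read. Of the 2928 stretches of Sprr2a1, 94.2% were also present in another gene, and 170 were found in Sprr2a1 alone. Of the 2807 of Sprr2a2, 94.6% were shared and 152 were its own. Sprr2a1 and Sprr2a2 thus had few stretches by which a single read could be placed. Sprr2a3 shared 47.0% of its 2807 stretches and had 1488 of its own. Sprr2b shared 3.81%, and none of the 731 stretches of Sprr1a was shared. Reads came in pairs, which can separate copies that a single 76-base stretch cannot. The annotated gene models also overlap: Sprr2a1 spans chr3:92215799-92221911 and Sprr2a2 spans chr3:92215920-92256724 on the plus strand, since 1 transcript of Sprr2a2 starts inside the first exon of Sprr2a1. Sprr2a3 spans chr3:92285417-92291405, Sprr2b spans chr3:92316620-92318085, and Sprr1a spans chr3:92483952-92485895 on the minus strand. The division of reads among the Sprr2a copies is therefore uncertain, and results below rest on the sum of the 3 copies (Sprr2a sum), which does not depend on that division.

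In microglia, Sprr2a transcripts went from no count after PBS to more than 1000 counts per library after rIL-4. In PBS microglia, Sprr2a1, Sprr2a2 and Sprr2a3 were at 0 in all 3 libraries. After rIL-13, the Sprr2a sum was 1258 counts in mouse 5, 800 in mouse 6 and 1195 in mouse 7. After rIL-4, it was 4332 in mouse 8, 3611 in mouse 9 and 1347 in mouse 10. The order of the groups was PBS, rIL-13, rIL-4, and no library of a group reached into the next. Of all genes tested in microglia, 9.89% had the rIL-4 libraries and 6.75% the rIL-13 libraries above the PBS libraries without overlap. After division by size factors, the means were 924 ± 237 normalized counts (SD, n = 3) with rIL-13 and 2830 ± 1425 with rIL-4. The folds against PBS microglia allow up to 3 counts for each PBS library at 0. On these terms, the mean Sprr2a sum was at least 335-fold higher with rIL-13 and at least 1026-fold higher with rIL-4. That allowance covers counting error in the PBS libraries only, not the spread between cytokine libraries. It corresponds to between 0.0760 and 0.0823 CPM, the count scaled to the library total, in the PBS libraries.

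In macrophages the same genes were also at 0 after PBS, and their counts after cytokine were much smaller. The Sprr2a sum was 118, 138 and 69 counts in rIL-13 macrophages of mice 5, 6 and 7. It was 119, 132 and 39 counts in rIL-4 macrophages of mice 8, 9 and 10. The cytokine groups overlapped each other and both lay above PBS, as did 11.1% of all genes tested with rIL-13 and 14.6% with rIL-4. The means were 128 ± 45.7 normalized counts with rIL-13 and 92.3 ± 48.8 with rIL-4 (SD, n = 3), at least 37.6-fold and at least 27.2-fold higher than in PBS macrophages under the same allowance.

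**Figure D1:**
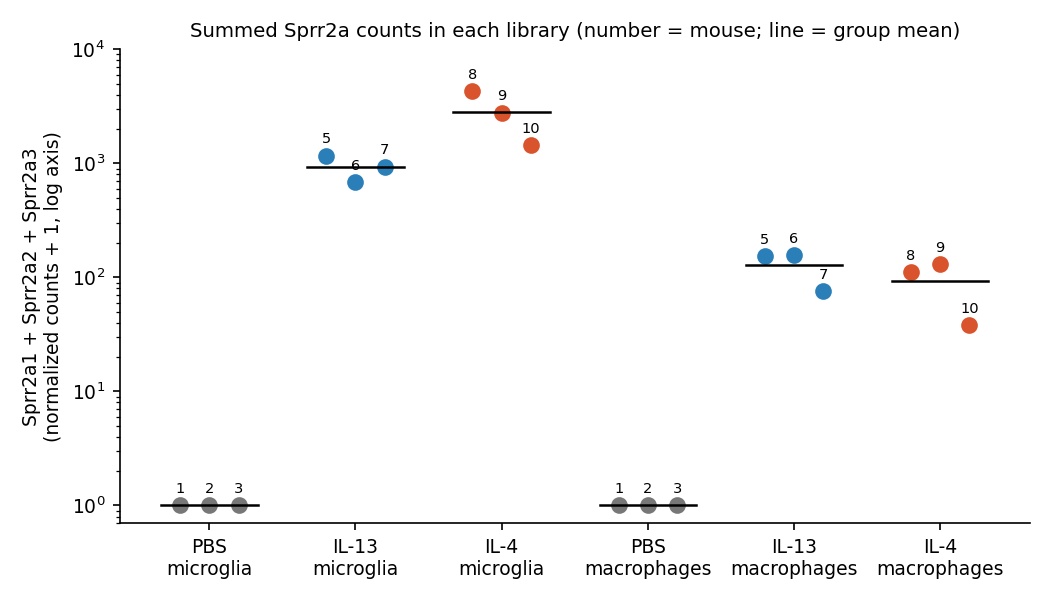
Summed normalized counts of Sprr2a1, Sprr2a2 and Sprr2a3, plus 1, on a log axis for each of the 18 libraries; points are libraries numbered by mouse and lines are group means. The 6 PBS libraries are at 0 counts, rIL-4 microglia are highest with a mean of 2830, and the cytokine-treated macrophages lie between 37.1 and 156.

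The single copies, as RSEM divided them, showed the same order in microglia. Sprr2a2 had 989, 578 and 920 counts in rIL-13 microglia and 3341, 2858 and 1084 in rIL-4 microglia. Sprr2a1 had 202, 177 and 238 counts in rIL-13 microglia and 818, 620 and 233 in rIL-4 microglia. Sprr2a3 had 67, 45 and 37 counts in rIL-13 microglia and 173, 133 and 30 in rIL-4 microglia. After division by size factors, the cytokine groups did not overlap for Sprr2a2, nor for Sprr2a1, with 249 normalized counts in its lowest rIL-4 library and 186 in its highest rIL-13 library. For Sprr2a3 the rIL-4 library of mouse 10, at 32.1, lay within the rIL-13 range of 28.8 to 61.7.

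In macrophages, Sprr2a2 was again the copy with most counts. Sprr2a2 had 87, 120 and 58 counts with rIL-13 and 106, 111 and 37 with rIL-4. Sprr2a1 had 28, 12 and 6 counts with rIL-13 and 11, 20 and 1 with rIL-4. Sprr2a3 never exceeded 6 counts in a macrophage library.

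Sprr2a2 took most of the Sprr2a sum in each microglia library, while the shares varied between libraries. Sprr2a2 took between 72.2% and 80.5% of the sum in the 6 cytokine microglia libraries, with a median of 77.9%. Sprr2a1 took between 16.1% and 22.1%, and Sprr2a3 between 2.23% and 5.62%. The exact 95% interval of the Sprr2a3 share was 1.51% to 3.16% in mouse 10 and 4.13% to 7.45% in mouse 6. These microglia libraries had the lowest and highest share. The interval treats each count as an independent read, which divided reads are not, so it understates the error. In macrophages, where the sums were between 39 and 138 counts, Sprr2a2 took between 73.7% and 94.9%. The widest departure was in rIL-4 macrophages of mouse 10, where Sprr2a1 held 2.56% of 39 counts, with an exact 95% interval from 0.0649% to 13.5%. These shares describe how RSEM divided the reads and are not a measure of which copy was transcribed.

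**Figure D2:**
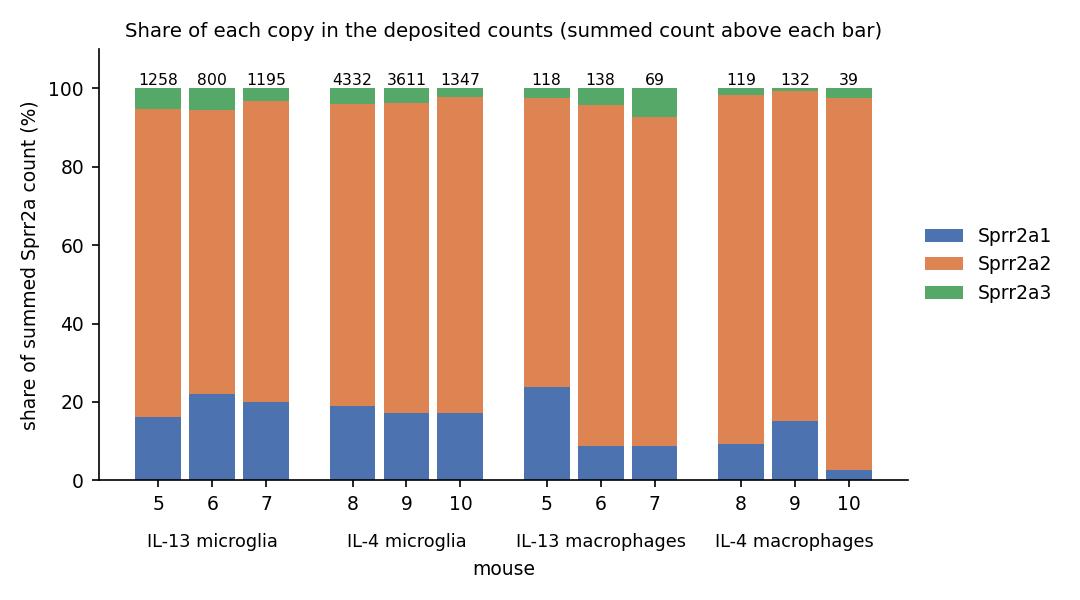
Share of Sprr2a1, Sprr2a2 and Sprr2a3 in the summed Sprr2a count (percent) for the 12 cytokine libraries, grouped by cell type and cytokine and ordered by mouse, with the summed count above each bar. Sprr2a2 takes the greatest share in each library, and the macrophage bars rest on at most 138 counts.

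Among all 25957 genes with at least 1 count in any library, Sprr2a1, Sprr2a2 and Sprr2a3 were the only 3 that were at 0 in all 6 PBS libraries and above 0 in all 12 cytokine libraries. This search was made after their values were seen. The 3 rows share reads and do not count as 3 separate observations. Other genes missed the cut at exactly 0 by few counts. Apol7c, an apolipoprotein L family gene, had at most 2 counts in a PBS library and was above 0 in all 12 cytokine libraries. Retnla, of the resistin family, had at most 7 counts in a PBS library and at least 1823 in a cytokine library. Sprr2a1 and Sprr2a3 themselves each had 1 count in rIL-4 macrophages of mouse 10.

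Sprr2b, which lies next to Sprr2a3 on the chromosome, was at 0 in all 18 libraries. Of 12 further Sprr genes in the table, 11 were at 0 in all 18 libraries, and none passed the filter on low counts, so none was tested against PBS in the main fits. The exception was Sprr2g, with 33 counts in rIL-4 microglia of mouse 9 and 0 in the other libraries. The annotated starts of Sprr2a3 and Sprr2b, neighbours with and without counts, are 69.6 and 100.8 kb from that of Sprr2a1. In a wider region of 1000 kb on each side of the Sprr2a genes, 10 of 74 further genes had any count and 2 passed the filter.

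Sprr1a had few counts, and these were spread over PBS libraries and 1 cytokine library. It had 0, 9 and 6 counts in PBS microglia of mice 1, 2 and 3, and 4, 0 and 2 counts in PBS macrophages. It was at 0 in 11 of the 12 cytokine libraries and had 11 counts in rIL-4 microglia of mouse 9. That is 4 of 6 PBS libraries above 0. The level in mouse 9 was 0.248 CPM, the highest of the 18 libraries, so PBS and rIL-4 microglia overlapped. Sprr1a was filtered out of every main test for low counts. The library of mouse 9 was also the only one with Sprr2g. The 10 neuron markers, which bear on Sprr1a because injured neurons express it, summed to 945 to 1435 normalized counts in PBS microglia. With rIL-13 their sum in microglia was 428 to 1306, and with rIL-4 it was 319 to 445. In macrophages the sum of these markers was 192 to 390 with PBS, 66.7 to 124 with rIL-13 and 122 to 167 with rIL-4. Their part in the Sprr1a counts was not tested.

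The upstream sequences of the Sprr2a copies and of Sprr2b are shown because these neighbours differ most in the data. RefSeq windows (GRCm38.p6) from 250 bases before to 50 after each annotated start were searched on both strands for TTC and GAA separated by any 4 bases, the palindrome that STAT6, the transcription factor of IL-4 and IL-13 signalling, is known to bind, and for TGANTCA, ATTTGCAT and TATAAA, the letters of the AP-1, octamer and TATA elements. Capitals mark matches. Only bases before the GENCODE start are printed.
Sprr2a1, chr3:92215585-92215798, plus strand: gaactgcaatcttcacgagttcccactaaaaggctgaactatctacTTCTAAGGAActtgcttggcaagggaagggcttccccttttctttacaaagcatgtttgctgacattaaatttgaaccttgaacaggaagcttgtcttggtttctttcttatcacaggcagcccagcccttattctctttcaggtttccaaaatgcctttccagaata
Sprr2b, chr3:92316455-92316619, plus strand: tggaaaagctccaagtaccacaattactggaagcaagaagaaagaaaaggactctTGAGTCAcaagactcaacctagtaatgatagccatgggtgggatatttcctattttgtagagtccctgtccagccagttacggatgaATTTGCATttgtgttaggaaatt
Sprr2a2 had the same 300 bases as Sprr2a1, and the window of Sprr2a3 matched over 272 of 272 bases when shifted by 28. The palindrome occurred in 3 of the 14 Sprr windows, those of Sprr2a1, Sprr2a2 and Sprr2a3, and in 6.95% of all 32851 windows. TGANTCA occurred in 9 of the 14, including Sprr2b and Sprr1a but no Sprr2a copy, and in 7.81% of all windows. ATTTGCAT occurred in 7 of the 14 and in 1.74% of all windows, and TATAAA in 10 and in 13.6%. The windows are not in register, however. A stretch of 17 bases common to them starts at position 5 in Sprr2a1 and at position -80 in Sprr2b, with the RefSeq start as position 0. The Sprr2a1 window therefore lies further upstream, and its palindrome at position -204 has no counterpart inside the Sprr2b window. In 378 bases from the Sprr2a1 window to the end of its first exon, TATAAA occurred at position 56, and TGANTCA and ATTTGCAT did not occur. These letter matches are a description of the windows only.

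Microglia were then compared with macrophages of the same treatment. These contrasts hold no PBS library, but they use the cytokine libraries in which the members had been noticed. After rIL-4, microglia had more Sprr2a than macrophages, with a log2 difference of 4.90 ± 0.59 for the sum (SE), a 29.9-fold difference (edgeR quasi-likelihood test, adjusted p = 0.00111). It was higher in microglia in 3 of 3 mice. Of the 13576 genes tested, 13.4% were called higher in microglia and 9.97% lower. For Sprr2a2 the log2 difference was 4.74 ± 0.56 (edgeR, adjusted p = 0.00103). Sprr2a1 and Sprr2a3 passed the filter on low counts only through the microglia libraries, so their tests between cell types are not used. Sprr2a3 had 4 counts in all in rIL-4 macrophages, against 336 in microglia.

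After rIL-13, microglia again had more Sprr2a than macrophages. The log2 difference of the Sprr2a sum between microglia and macrophages was 2.83 ± 0.39, or 7.13-fold (edgeR, adjusted p = 0.00212), with the higher level in microglia of 3 of 3 mice. Of the 13906 genes tested, 17.2% were called higher in microglia and 9.46% lower. For Sprr2a2 the log2 difference was 2.75 ± 0.42 (adjusted p = 0.00310), and without mouse 7 it was no longer called (adjusted p = 0.0534). The Sprr2a sum was called each time a mouse was left out, with a highest adjusted p of 0.0391. The gap between cell types after rIL-4 was not shown to differ from that after rIL-13 (interaction, edgeR, adjusted p = 0.370). After PBS, no member passed the filter and none was tested in the main fit.

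Most genes of a list of macrophage response genes to these cytokines were not called higher in microglia, with or without cytokine. Of 29 tested genes on a list of IL-4 and IL-13 response genes of mouse macrophages, 2 were called higher and 12 lower in microglia after rIL-4 (13.4% and 9.97% of all genes tested), with a median log2 difference of -1.38 against -0.03 over all genes tested. After rIL-13, 3 were higher and 16 lower (17.2% and 9.46% of all), with a median of -1.74 against 0.04 over all genes. After PBS, 26 could be tested, of which 3 were higher and 15 lower in microglia (24.5% and 16.3% of all), with a median of -1.57 against 0.04. Chil3, a chitinase-like protein, had a log2 difference of -2.44 ± 0.29 between microglia and macrophages after rIL-4 (edgeR, adjusted p = 0.000998). The 2 genes higher in microglia after rIL-4 were Ptgs1, a cyclooxygenase, with a log2 difference of 1.50, and Flt1, a VEGF receptor, with 2.36. Both were also called higher in microglia after PBS, by 1.35 and 4.76.

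Within each mouse, the macrophage level of the Sprr2a sum was a small percentage of the microglia level. It was 13.1%, 22.8% and 8.05% in mice 5, 6 and 7 with rIL-13, and 2.56%, 4.70% and 2.58% in mice 8, 9 and 10 with rIL-4. The 9 microglia markers, such as P2ry12 and Tmem119, can be read on the same scale. Their median was 17.1%, 26.6% and 14.4% in mice 5, 6 and 7, and 5.52%, 5.17% and 6.34% in mice 8, 9 and 10. In each of these 6 mice the Sprr2a percentage lay within the range of the 9 markers and below their median. The part of microglia collected in the macrophage gate was not tested.

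**Figure D3:**
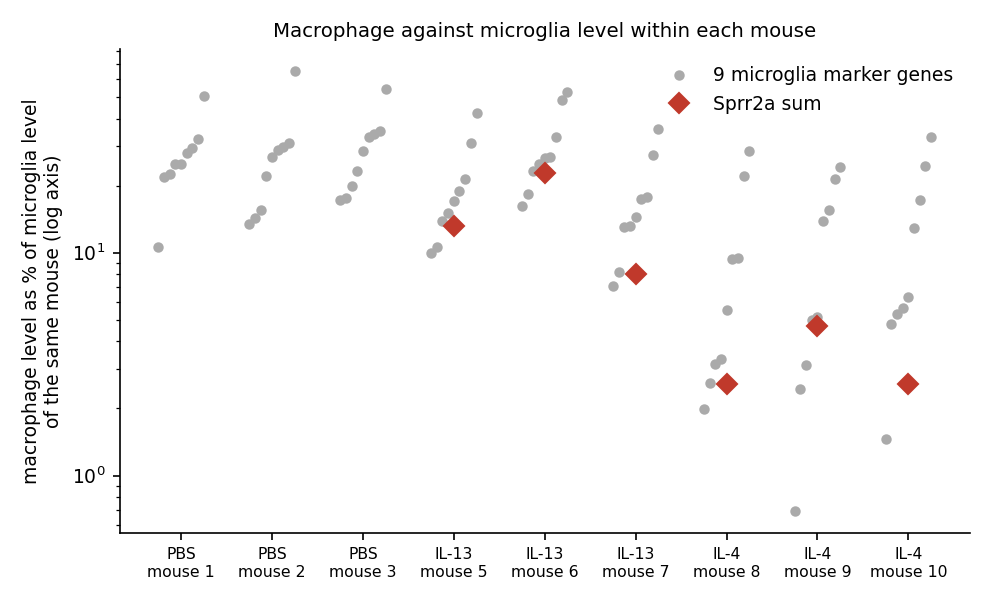
Macrophage level as a percentage of the microglia level of the same mouse (log axis) for the 9 microglia marker genes (grey points) and the Sprr2a sum (red diamonds), for each of the 9 mice; PBS mice have no diamond because Sprr2a was at 0. The diamonds lie inside the spread of the markers in all 6 cytokine mice.

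Markers separated the sorted populations after PBS, but microglia libraries also had counts of marker genes of other cells, and the markers moved with treatment. The summed microglia markers ranged from 258858 to 464818 normalized counts in PBS microglia and from 111328 to 167605 in PBS macrophages. Their range in microglia was 116790 to 297847 after rIL-13 and 106954 to 181479 after rIL-4, so that rIL-4 microglia overlapped PBS macrophages. The 8 markers of monocyte-derived macrophages, all with counts in each group, summed to 94276 to 127573 in PBS microglia, 247425 to 375680 in rIL-13 microglia and 640766 to 1000780 in rIL-4 microglia. In PBS macrophages they summed to 877416 to 959954, where Sprr2a was at 0. Chil3, which is on this list and is also a cytokine response gene, made up most of the change. Without Chil3 the other 7 summed to 92270 to 117444 in PBS microglia, 55070 to 158863 in rIL-13 microglia and 93555 to 189510 in rIL-4 microglia, and the groups overlapped. The part of these shifts in the Sprr2a counts was not tested. All 9 fibroblast and pericyte markers, among them the collagens Col1a1 and Col3a1, had counts in microglia of each group. Their sum ranged from 102783 to 149824 in PBS microglia, from 51768 to 333261 after rIL-13 and from 9137 to 63480 after rIL-4, and was at most 372 in any macrophage library. All 6 endothelial markers also had counts, with a sum of 32094 to 71101 in PBS microglia, 65369 to 107030 after rIL-13 and 76424 to 102851 after rIL-4. In macrophages their sum was at most 16084, of which most came from Pecam1 and Flt1, and the endothelial gene Cldn5 had group means between 33.2 and 95.5. The endothelial sum was therefore higher in microglia than in macrophages, as the Sprr2a sum was, and its range in rIL-4 microglia lay above its range in PBS microglia.

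Within rIL-4 microglia, the fibroblast and pericyte sum was 63480, 37402 and 9137 in mice 8, 9 and 10, the same order as the Sprr2a sum. Within rIL-13 microglia it was 75055, 333261 and 51768 in mice 5, 6 and 7, and mouse 6, the highest, had the lowest Sprr2a sum. The fibroblast and pericyte sum was lower with rIL-4 than with PBS, whereas Sprr2a was at 0 with PBS. The gate on CD11b and F4/80, markers of myeloid cells, is meant to leave out fibroblasts, pericytes and endothelial cells. Markers of these cells still had counts in microglia of each group. The part of these cells in the Sprr2a counts was not tested. Keratinocytes, the usual source of Sprr transcripts, were checked in the same way. Their defining genes Krt5, Krt14, Krt15, Trp63, Dsg1a and Dsg3 were at 0 in all 18 libraries, and the sum of the 12 keratinocyte markers was 171 to 216 in rIL-4 microglia, 458 to 1076 in rIL-13 microglia and 528 to 757 in PBS microglia. Sums over the other marker lists in microglia were at most 7647 normalized counts for 8 neutrophil markers, 633 for 6 eosinophil markers, 12847 for 6 oligodendrocyte markers, 11313 for 6 astrocyte markers and 913 for 6 markers of T and innate lymphoid cells. The ranges after each cytokine overlapped those after PBS, except for the oligodendrocyte sum, which was 9176 to 11443 after PBS and 5249 to 8052 after rIL-13. In rIL-4 microglia the oligodendrocyte sum was 10750 to 12847, above its range of 4863 to 5239 in rIL-4 macrophages, the same direction as Sprr2a. The part of oligodendrocytes in the Sprr2a counts was not tested. In bulk libraries, fewer cells with the transcripts and less transcript per cell cannot be told apart.

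rIL-4 was then compared with rIL-13 within each cell type. In microglia, the Sprr2a sum was 3.11-fold higher with rIL-4, a log2 difference of 1.64 ± 0.42 (SE), and all 3 rIL-4 libraries lay above all 3 rIL-13 libraries. Of the genes tested, 5.08% had rIL-4 libraries above rIL-13 libraries without overlap. The difference did not pass the threshold in edgeR (adjusted p = 0.298), and 0 of the 3 tested members were called, against 0.0385% of the 15566 genes tested. At an unadjusted p under 0.05 there were 2, Sprr2a2 and Sprr2a1, against 11.4% of all genes tested. The DESeq2 Wald test called Sprr2a2 (adjusted p = 0.0119) and the Sprr2a sum (adjusted p = 0.00969). Whether rIL-4 microglia had more Sprr2a than rIL-13 microglia thus depends on the tool. When each mouse was left out in turn, the log2 difference in edgeR ranged from 1.20 to 1.95, with adjusted p between 0.167 and 0.487.

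In macrophages, the Sprr2a sum was lower with rIL-4 by 0.45 on the log2 scale, with an SE of 0.52, and the groups overlapped (edgeR, adjusted p = 0.827). With edgeR and with DESeq2, 0 of 2 tested members were called and 0 had an unadjusted p under 0.05 (11.1% of all genes tested), where 0.25% of the 13606 genes tested were called. Sprr2a3 was removed by the filter on low counts. The difference between the cell types in this response was tested as an interaction. The log2 difference between rIL-4 and rIL-13 was greater in microglia than in macrophages by 2.07 ± 0.69 for the Sprr2a sum (edgeR, adjusted p = 0.370). Of the 2 members that also passed the filter in macrophages, Sprr2a1 and Sprr2a2, 0 were called by edgeR or DESeq2, and 0.139% of 16535 genes were called by edgeR. Sprr2a2 had an unadjusted p under 0.05, as did 10.0% of all genes. For Sprr2a2 the interaction was 1.99 ± 0.68 (adjusted p = 0.377).

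**Figure D4:**
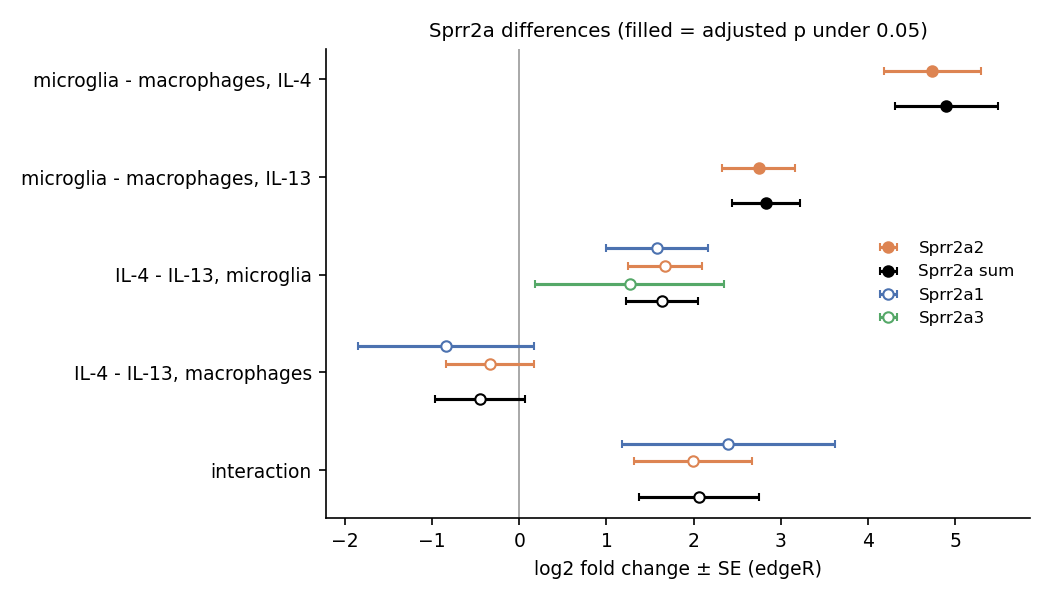
Log2 fold changes with their standard errors from edgeR for the Sprr2a sum and each copy in comparisons with no PBS group on either side. PBS libraries were part of the fits of rIL-4 against rIL-13 and of the interaction. Filled points passed an adjusted p of 0.05. Sprr2a1 between cell types, and Sprr2a3 between cell types and in the interaction, are left out. The microglia against macrophage differences are filled, with 4.90 for the sum after rIL-4 and 2.83 after rIL-13, and those between rIL-4 and rIL-13 are open.

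Levels were also set on a scale per transcript length, to place Sprr2a among other genes. Divided by the mean exon length of the 3 copies, the Sprr2a sum was 25.4 CPM per kb in rIL-4 microglia, above 89.4% of the genes tested. It was 9.17 CPM per kb in rIL-13 microglia, above 73.2%. In macrophages it was 0.965 with rIL-13 and 0.762 with rIL-4, above 33.9% and 29.2% of genes. On the same scale, Retnla, a cytokine-induced secreted protein of the resistin family, was at 560 in rIL-4 microglia. With this length, Sprr2a transcripts were well above the median gene in cytokine microglia and below it in macrophages, and in rIL-4 microglia under Retnla. The length covers all annotated exons. Shorter transcripts are also annotated, such as 1 of Sprr2a3 with 682 bases, and with these the levels per kb would be higher.

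Other genes of the cornified envelope were mostly at 0. Of 43 genes of the cornified envelope and epidermal differentiation complex, 35 were at 0 in PBS microglia and 38 in rIL-4 microglia, and 5 could be tested. Of these, 1 was called in rIL-4 microglia, where 1.33% of all genes tested were called higher. It was Tgm2, a transglutaminase expressed widely outside the skin, which rose by 2.71 ± 0.41 on the log2 scale (edgeR, adjusted p = 0.0119). The median of the 5 was -0.95, against -0.06 over all genes. Tgm2 also rose in rIL-4 macrophages, by 1.71 ± 0.46 (adjusted p = 0.0333). With a mouse left out, Tgm2 was not called in rIL-4 microglia without mouse 1 or mouse 3 (highest adjusted p = 0.0812), and in rIL-4 macrophages without mouse 1, 2, 3, 7 or 9 (highest adjusted p = 0.118). In rIL-13 libraries its log2 difference was 2.04 in microglia (adjusted p = 0.103) and 1.48 in macrophages (adjusted p = 0.114).

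Genes of cytokine reception and signalling were read beside Sprr2a. Of 14 receptor and STAT6 signalling genes tested in microglia, 1 was called higher and 1 lower with rIL-4, where 1.33% of all genes were higher. Their median was 0.22, against -0.06 over all genes. The number called was 1 to 3 with a mouse left out and 2 to 6 in other fits. With rIL-13, 1 was higher and 0 lower, where 0.283% of all genes were higher. Socs1, a feedback inhibitor of JAK kinases, rose in rIL-4 microglia by 3.90 (edgeR, adjusted p = 0.00138) and in rIL-13 microglia by 2.70 (adjusted p = 0.0148). Socs1 was not called in rIL-13 microglia without mouse 1, 3 or 7 (highest adjusted p = 0.101). Socs3, a related inhibitor, fell with rIL-4 by 0.89 (adjusted p = 0.0282), and without each of the PBS and rIL-4 mice in turn it was not called (highest adjusted p = 0.127). Stat6 itself had log2 differences between microglia and macrophages of -0.72 after rIL-4 (adjusted p = 0.0183) and -0.82 after rIL-13 (adjusted p = 0.0167), the opposite direction to Sprr2a. Stat6 was not called after rIL-4 without any 1 of mice 8, 9 and 10 (highest adjusted p = 0.128), nor after rIL-13 without mouse 5 or 7 (highest adjusted p = 0.0857). On the same list, Il13ra2, an IL-13 receptor gene, was at 0 in PBS microglia and in every macrophage library. It had 31 to 139 counts in rIL-13 microglia and 0 to 184 in rIL-4 microglia. After rIL-4, 0 of 13 tested genes of the list were called higher in microglia and 4 lower (13.4% and 9.97% of all). After rIL-13, 1 of 14 was higher and 4 lower (17.2% and 9.46% of all). Of the 27 response genes tested in microglia, 14 rose with rIL-4 and 8 with rIL-13 and 0 fell, where 1.33% and 0.283% of all 15566 genes were called higher, with medians of 2.71 and 2.04 against -0.06 and -0.00082 over all genes. When a mouse was left out, the 8 became 4 (without mouse 3) to 10. The 4 with the lowest p in both contrasts were Ccl24, Clec7a, Retnla and Chil3. Ccl24, an eosinophil-attracting chemokine, rose by 8.40 with rIL-4 (adjusted p = 5.7e-05) and by 6.44 with rIL-13 (adjusted p = 0.000391).

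The genes whose profile over the 18 libraries lay nearest to that of the Sprr2a sum were Apol7c, Gm8113, Rnase2a, Gm6116 and Ccl8. The measure was the root mean square difference of log2(normalized count + 1) values, each centred on its own mean, over 15033 genes with a mean of at least 10 normalized counts. Apol7c, an apolipoprotein L family gene, was nearest at 2.15 log2 units, and the profile of the Sprr2a sum itself varied by 4.42. Apol7c was at 0 in PBS microglia and had means of 98.4 with rIL-13 and 170 with rIL-4 in microglia, against 11.0 and 16.2 in macrophages. Rnase2a, a secreted ribonuclease, and the chemokine Ccl8 lay at 2.43 and 2.51. Their means were higher in macrophages than in microglia after each cytokine, unlike Sprr2a. For Sprr1a, whose profile rests on 5 libraries above 0, the nearest gene was Cntrob, a centrosomal protein gene, at 0.83 against 1.22 for the profile of Sprr1a itself. Of its 5 nearest genes, only 1 to 3 remained when a mouse was left out.

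Total counts were between 35961305 and 45849829 per library, and between 36445342 and 39463858 in the PBS libraries. No pair of libraries had identical counts.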

How the data were processed

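RNA was sequenced from microglia and macrophages of 9 mice. Per the labels and the study's methods, the authors mapped read pairs to GRCm38 with STAR 2.5.3a and estimated expected counts per gene with RSEM 1.3.0, which divides a read that fits several genes among them. The deposited expected counts were whole numbers, not normalized. The annotation release was not given in the sources used here. SMART-seq2 carries no molecular identifiers and no strand, so counting intervals cover counting error only, and antisense reads cannot be told apart. Samples were grouped by the labelled treatment and cell type. Libraries of a group came from separate mice.

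Counts were tested with edgeR 4.0.16 (TMM, filterByExpr, quasi-likelihood test; R 4.3.3), with Benjamini-Hochberg adjustment over all genes kept and a threshold of 0.05. rIL-4 and rIL-13 were compared in the 9 libraries of a cell type, cell types in the 6 libraries of a treatment, and the interaction in all 18. Each standard error is the log2 fold change over the square root of its F. DESeq2 1.42.0 size factors of the 18 libraries gave the normalized counts. The fits were tested on simulated data. Sequence comparisons used GENCODE transcripts and RefSeq windows. Microglia and macrophages of the same number came from the same mouse per the labels; their deviations from group means correlated by 0.017 to 0.095 across genes. The alternatives tried were other size factors, DESeq2, other filters, other sets of libraries, a replicate block by mouse, each mouse left out, and the Sprr2a copies added into 1 row.

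The members and lists were chosen with earlier results of these data known. The text names the 5 members, the 4 lowest-p called genes of a list in a contrast, markers at or near 0, and the 5 nearest profiles. Sprr2g, Ptgs1, Flt1, Retnla as scale, Stat6, Il13ra2, Cldn5, Pecam1 and the single fibroblast genes were named after their values were seen. So were Apol7c and Retnla beside the cut at 0. 1 gene of the lists, and 1 list with it, are not reported here.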

Additional observations from a re-analysis of the deposited data

How the results depend on the processing

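The Sprr2a sum kept its direction in every alternative fitted, and it was called in both comparisons of microglia with macrophages in all of them. Leaving out each mouse in turn gave log2 differences from 4.65 to 5.28 after rIL-4 and from 2.55 to 3.17 after rIL-13. With the replicate block by mouse they were 4.94 (edgeR, adjusted p = 0.000409) and 2.86 (adjusted p = 0.00515), and the interaction was 2.08 (adjusted p = 0.278); the paired fit changed no call of the sum. For rIL-4 against rIL-13 in microglia, the DESeq2 Wald test gave 1.64 for the sum (adjusted p = 0.00969) and called 1 member, Sprr2a2, where edgeR called 0; the cause was not tested. The number of copies called between cell types was 3 in each comparison, where 13.4% of all genes were called higher in microglia after rIL-4 and 17.2% after rIL-13. Nothing is read from this number, since Sprr2a1 and Sprr2a3 passed the filter only through microglia. It was 1 in each with the copies added into 1 row and 1 with at least 10 counts required in every library, since only 1 row was then tested, and between 2 and 3 after rIL-4 and between 0 and 2 after rIL-13 when a mouse was left out. For rIL-4 against rIL-13 in macrophages, leaving out a mouse gave between -1.72 and 0.050 for Sprr2a1 and between -0.63 and 0.017 for Sprr2a2, so their direction there is not settled. Of the 5 nearest genes, 2 remained with a pseudocount of 5, 0 with log2(CPM + 1), and between 4 and 5 when a mouse was left out; of those to Sprr1a, 0 to 4 remained in the other settings. Counts at or below 3 in macrophages limit what can be said of Sprr2a3.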
